A study of Mus musculus with 130 samples.

Results

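The AP-1 subunit genes Jun, Junb, Jund, Fos and Fosb, the zinc-finger gene Egr1, the nuclear-protein genes Ier2 and Ier5 and the phosphatase genes Dusp1 and Dusp6 were followed in single mouse 2-cell embryos cultured with SR1848 or with its solvent. They are 10 of the 29914 genes with a count in the deposited data. They were chosen by name because members were known from these data to be higher with SR1848, so their levels in SR1848 and DMSO embryos are given below as a description, without a test. The first group was 80 B6129F1 embryos given 10 µM SR1848 in KSOM medium. The second was 50 B6129F1 embryos given 0.1% DMSO, whose titles are marked NT. In both groups zygotes were taken 5 hours after fertilization, the agent was added from 6 hours, and culture was in wet chambers without oil. SR1848 is a small molecule used against the orphan nuclear receptor Nr5a2 (LRH-1). Each embryo gave 1 oligo-dT-primed Smart-seq2 library, a full-length cDNA method, so more message per blastomere and a change in 1 blastomere cannot be told apart. The design text lists 56 control embryos, and those beyond the 50 were not analysed here.

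Immediate-early genes are transcribed within minutes of a signal, without new protein synthesis, and their short-lived messages decay soon after. Jun and Fos proteins pair through leucine zippers to form the transcription factor AP-1, and Egr1 is a transcription factor induced by the same ERK, JNK and p38 kinase cascades. Dusp1 and Dusp6 encode phosphatases that switch those kinases off, so their induction is part of a feedback loop. The 2-cell mouse embryo is the stage at which stored oocyte messages are cleared and the embryo's own genome is switched on. In many cells immediate-early genes also respond to handling and culture.

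Total estimated counts ran from 2701208 to 7765359 per SR1848 embryo and from 3140419 to 8360748 per DMSO embryo, with means of 4726012 and 5332178 (adjusted p = 0.00686, two-sided permutation test). Detected genes numbered 15508 ± 691 with SR1848 and 16009 ± 476 with DMSO (SD, n = 80 and 50, adjusted p = 6e-05, permutation test). Levels are CPM, a gene's share of the counts of its library after TMM scaling of library sizes. Nr5a2 stood at 0, 9.06 and 35.2 CPM (lowest, median, highest) with SR1848 and at 51.6, 95.5 and 179 CPM with DMSO. The filter on low counts kept 13164 genes. By edgeR's quasi-likelihood fit and a Benjamini-Hochberg threshold of 0.05, 82.2% of them were called, 45.6% as higher and 36.5% as lower in SR1848 embryos, and their median log2 fold change was 0.24. Scaled to the summed level of 44 oocyte transcripts instead, 2184 genes were higher and 7493 lower, against 6008 and 4807, and the median was -0.69. That sum is weighted by level: its transcripts Zbed3 and Spin1 averaged 12821 and 11630 CPM with SR1848, where the median sum was 41834 CPM. With DMSO they averaged 2880 and 4615 CPM, at a median sum of 21423 CPM. The labels do not say which embryos shared a female, a drop or a plate, so p-values measure the spread between these embryos, and SR1848 cannot be told apart from any handling that its embryos had in common.

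A run of SR1848 embryos stood apart in the members. In the 14 embryos numbered 51 to 64 Jun reached at most 36.3 CPM, whereas it was 706, 324, 179, 311, 331, 271 and 182 CPM in numbers 65, 67, 68, 70, 71, 72 and 74. Junb stood at 208, 226 and 202 CPM in numbers 70, 71 and 72, and Ier2, Dusp1 and Egr1 were also high in many embryos from 65 to 75. The numbers are names that the labels tie to no batch or day, so a batch and biological spread cannot be told apart there. Values without the 11 SR1848 embryos numbered 65 to 75, a range chosen after the values were seen, are given for part of the results. These are log2 fold changes, member pairs and list counts that changed. None is given for relations with other measures or for the genes most like the members. Without these 11 embryos the log2 fold changes were 4.96 for Jun, 4.37 for Junb, 1.71 for Fos, 2.39 for Fosb, 2.12 for Egr1, 2.37 for Ier2, 1.87 for Ier5, 2.47 for Dusp1 and 3.80 for Dusp6.

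The members lie on 8 chromosomes, and in GENCODE M21 on mm10 the main transcripts of Jun, Junb, Jund, Ier2 and Ier5 have a single exon, those of Egr1 and Dusp6 have 3 and those of Fos, Fosb and Dusp1 have 4. The 250 bases before the start site were taken from RefSeq (GRCm38.p6) for the 8 members that matched. No window is shown for Egr1 and Ier2. The 3 windows below are shown because each holds a sequence element that the text refers to, in capitals, on the strand of the gene. In Jun (chr4:95052223-95052472, minus strand) the capitals mark TGACATCA, a one-letter variant of the cAMP response element (CRE), in Dusp1 (chr17:26508473-26508722, minus strand) the full CRE TGACGTCA, and in Fos (chr12:85473640-85473889, plus strand) the TATA element TATAAA.
Jun: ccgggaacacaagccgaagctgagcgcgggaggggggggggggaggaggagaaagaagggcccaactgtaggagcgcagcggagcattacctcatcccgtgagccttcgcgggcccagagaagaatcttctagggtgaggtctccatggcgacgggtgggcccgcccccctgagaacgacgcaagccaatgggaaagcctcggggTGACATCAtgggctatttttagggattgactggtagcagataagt
Dusp1: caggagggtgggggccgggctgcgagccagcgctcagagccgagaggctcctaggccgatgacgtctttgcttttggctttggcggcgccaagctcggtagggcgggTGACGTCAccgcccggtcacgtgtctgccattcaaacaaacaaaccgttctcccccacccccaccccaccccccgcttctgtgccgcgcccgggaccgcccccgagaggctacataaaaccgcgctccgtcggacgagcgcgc
Fos: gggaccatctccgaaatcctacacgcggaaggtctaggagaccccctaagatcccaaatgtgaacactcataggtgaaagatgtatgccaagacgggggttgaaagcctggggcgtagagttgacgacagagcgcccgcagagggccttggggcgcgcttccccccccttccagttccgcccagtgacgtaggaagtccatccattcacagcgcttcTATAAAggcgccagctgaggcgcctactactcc
The first capital stands 45 bases before the start site in Jun, 143 in Dusp1 and 33 in Fos. The Dusp1 window lies inside the annotated span of the gene because a longer transcript starts further upstream. The Jund window, which is not shown (chr8:70697489-70697738, plus strand), ends well before the GENCODE start of Jund at 70698949. It is therefore not the stretch just before that start. Searched on both strands in 32851 windows of the same length, TGACGTCA was found in 1.55%, TGACATCA in 2.93% and TATAAA in 12.4%. TGACATCA was added to the search after the Jun window had been read. The shorter TGACG, which TGACGTCA contains, was found in the windows of Junb, Fos, Fosb and Dusp1 and in 17.77% of all windows. None of the 8 member windows held the AP-1 element TGACTCA (4.46% of all windows), the CArG box bound by SRF (1.47%), the Egr element GCGTGGGCG (0.536%), the Ets core CCGGAA (12.03%) or the Nr5a2 element TCAAGGNCA (1.39%), which says only that these letters are not in these windows.

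The level of the Jun subunits differed: Jun and Junb were close to absent in DMSO embryos and present in nearly all SR1848 embryos, while Jund was low in both. Jun, the main transactivating partner in AP-1 (chromosome 4, 95049034 to 95052222), ran from 0 to 706 CPM with SR1848, with a median of 35.2, and from 0 to 11.7 CPM with DMSO, with a median of 0.0835. The fitted log2 fold change was 5.44 (SE 0.44). All but 11 of the SR1848 embryos, 69 of 80, lay above every DMSO embryo, and 1 SR1848 and 25 DMSO embryos had no count.
Junb, a subunit that in many cells opposes Jun on proliferation (chromosome 8, 84974484 to 84978718), ran from 0 to 226 CPM with SR1848, median 20.3, and from 0 to 5.07 CPM with DMSO, median 0.485, a log2 fold change of 4.89 (SE 0.41). Here 70 SR1848 embryos were above every DMSO embryo, and 2 SR1848 and 24 DMSO embryos had no count.
Jund, the Jun subunit that most cells express constantly (chromosome 8, 70698949 to 70700616), ran from 0 to 7.29 CPM with SR1848, median 0.628, and from 0 to 4.52 CPM with DMSO, median 0.508. It did not pass the filter on low counts, and 1 SR1848 embryo lay above every DMSO embryo, so the groups overlapped almost wholly. In the authors' deposited table the log2 fold change of its transcript was 0.20 with an adjusted p of 0.625, so Jund goes against the description of the members as higher with SR1848.

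Fos and Fosb had lower levels per transcript length than Jun and Junb with SR1848, and the groups overlapped more. Fos, which cannot pair with itself and needs a Jun partner (chromosome 12, 85473890 to 85477273), ran from 0 to 38 CPM with SR1848, median 6.31, and from 0 to 12.7 CPM with DMSO, median 1.5. Its log2 fold change was 1.63 (SE 0.44), the smallest of the 9 members fitted, and 0.90 when scaled to oocyte transcripts. Only 18 SR1848 embryos were above every DMSO embryo, and 15 SR1848 and 23 DMSO embryos had no count.
Fosb, a Fos relative (chromosome 7, 19302696 to 19310051), ran from 0 to 17.9 CPM with SR1848, median 2.41, and from 0 to 4.90 CPM with DMSO, median 0.159, a log2 fold change of 2.36 (SE 0.40), or 1.53 when scaled to oocyte transcripts. The highest count of any embryo was 80 for Fosb and 26 for Jund, so single-embryo values of both carry large counting error.

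Egr1 was detected in every embryo of both groups. It ran from 11.7 to 241 CPM with SR1848, median 55.5, and from 3.25 to 61.6 CPM with DMSO, median 12.5 (chromosome 18, 34859823 to 34864984). The log2 fold change was 2.24 (SE 0.19), and 1.33 when scaled to oocyte transcripts. Of the SR1848 embryos, 33 lay above every DMSO embryo and 78 above the DMSO median. Its relatives Egr2, Egr3 and Egr4 had means under 1 CPM in both groups.

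Ier2 and Ier5, immediate-early genes of one protein family with roles in transcription, were present in most DMSO embryos and had higher medians with SR1848. Ier2 (chromosome 8, 84661331 to 84662852) ran from 0 to 240.1 CPM with SR1848, median 31.5, and from 0.141 to 43.3 CPM with DMSO, median 4.76, a log2 fold change of 2.67 (SE 0.28). Ier5, a cofactor of heat-shock factor HSF1 in human cells (chromosome 1, 155096361 to 155099636), ran from 0 to 88.4 CPM with SR1848, median 12, and from 0 to 11.2 CPM with DMSO, median 3.5, a log2 fold change of 2.15 (SE 0.28), or 1.42 when scaled to oocyte transcripts. Above every DMSO embryo were 27 SR1848 embryos for Ier2 and 42 for Ier5.

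The feedback phosphatases had the highest levels per transcript length with SR1848. Dusp1, a nuclear phosphatase that acts mainly on JNK and p38 (chromosome 17, 26505590 to 26562128), ran from 1.58 to 2257 CPM with SR1848, median 134, and from 4.81 to 153 CPM with DMSO, median 27.4, a log2 fold change of 2.89 (SE 0.29). The lowest Dusp1 value was that of an SR1848 embryo, and 37 SR1848 embryos were above every DMSO embryo.
Dusp6, a cytoplasmic phosphatase selective for ERK (chromosome 10, 99263231 to 99267489), ran from 27.5 to 722 CPM with SR1848, median 226, and from 0 to 65.2 CPM with DMSO, median 9.51, a log2 fold change of 3.84 (SE 0.25). It separated the groups best: 75 SR1848 embryos lay above every DMSO embryo and all 80 lay above the DMSO median.

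**Figure D1:**
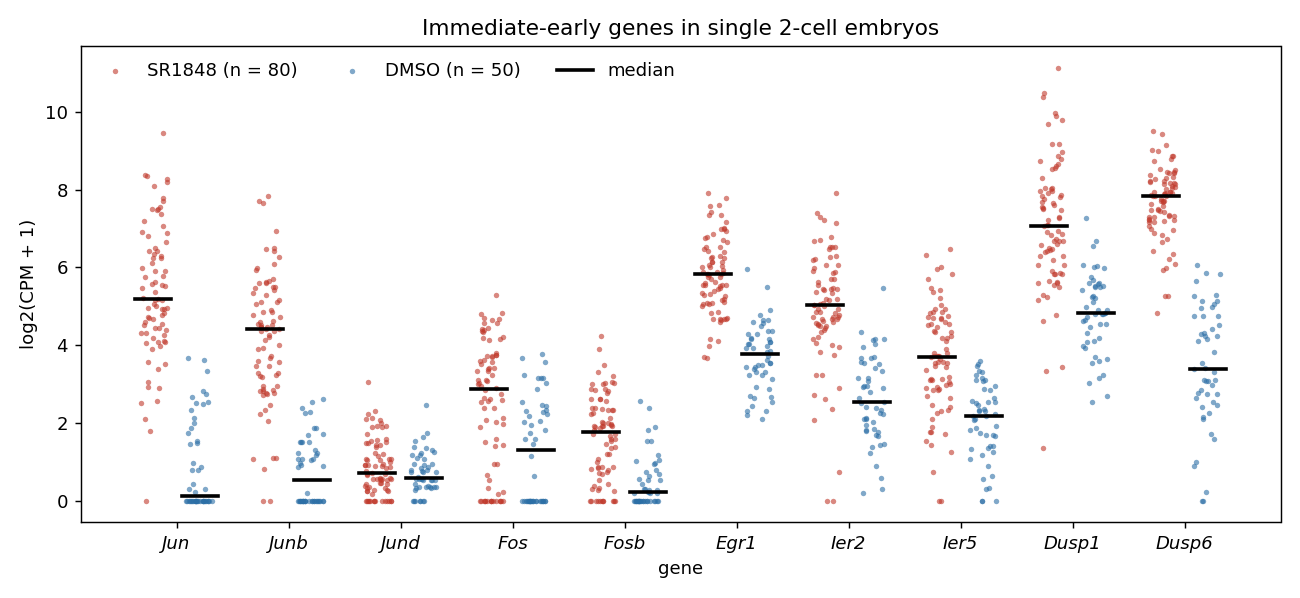
Level of each gene as log2(CPM + 1) in every embryo, SR1848 left (red, n = 80) and DMSO right (blue, n = 50), with the median as a black bar. Dusp6, Jun and Junb overlap least between the groups, and Jund overlaps almost wholly.

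No member had groups without overlap, which 0.0228% of tested genes showed in the higher direction. In 4 members (Jun, Junb, Ier5 and Dusp6) at least 40 of the 80 SR1848 embryos lay above every DMSO embryo, against 8.58% of all tested genes, but the members were chosen on this contrast and nothing is read from that. The response was uneven between embryos. Per SR1848 embryo between 0 and 8 of the 10 members lay above every DMSO embryo, with a median of 5, at least 5 did so in 45 embryos, and 1 embryo had none.

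Per transcript length, Dusp6 and Dusp1 stood at the top with SR1848, at medians of 84.6 and 68.4 CPM per kb, and their interquartile ranges (55.8 to 112 and 34.7 to 130.03) overlapped. Ier2 (20.7), Egr1 (16.7), Junb (11.2) and Jun (11.05) followed as neighbours whose interquartile ranges overlapped, then Fos (3.69) and Ier5 (3.66), and Fosb (0.818) and Jund (0.403) came last. With DMSO the order was different: Dusp1 led at 14.6 CPM per kb, Egr1, Dusp6 and Ier2 lay together at 3.78, 3.67 and 3.13, and Jun was lowest at 0.0262.

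Apart from Fosb, the main transcript of each gene held a similar share of its counts in both groups. Single transcripts held all the counts of Jun, Jund, Ier2 and Ier5, and Egr1-202 held 77.6% of the Egr1 counts with SR1848 and 78.1% with DMSO. Fosb counts were split between several transcripts, with 35.2% on Fosb-207 with SR1848 and 61.4% with DMSO, and how kallisto divides so few reads between them is uncertain. After the values were seen, the retained-intron transcripts of Dusp1 and Fosb were looked at. Those of Dusp1 held 0.957% of its counts with SR1848 and 0.0767% with DMSO, with a count of at least 1 in 21 of 80 and 2 of 50 embryos. Of its 881 such counts with SR1848, 303 came from 1 embryo. That of Fosb, Fosb-204, held 22.3% of the Fosb counts with SR1848 and 12.9% with DMSO, with a count of at least 1 in 35 of 80 and 9 of 50 embryos. Junb overlaps exons of Prdx2 on the opposite strand, a peroxidase gene at 917 ± 338 CPM with SR1848 and 610 ± 194 CPM with DMSO (SD), and a protocol that does not mark strand cannot tell shared reads apart. Dusp1 likewise overlaps Ergic1 (27.6 ± 18.5 and 8.90 ± 6.29 CPM), and Jun and Jund overlap annotated antisense genes.

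The members were then compared with each other inside each group, a comparison that the choice of members by group difference did not use. Among the 80 SR1848 embryos most members varied together. Of 45 pairs, 30 had a positive Spearman's rho past the threshold and none a negative one (permutation tests of 100000 resamples, smallest p 1e-05, Benjamini-Hochberg over the 45 pairs), and 28 passed by Pearson's r. The median rho was 0.317, and without the embryos numbered 65 to 75 the count was 21. Correlation was common in these libraries: the lowest rho that passed, 0.248, was reached by 11.5% of all pairs of tested genes, by 22.7% of genes with Dusp1 and by 19.5% with Jun. The strongest pair by rho was Jun and Dusp1 (rho = 0.71, r = 0.65, adjusted p = 4.1e-05 for each, permutation test), with r at 0.70 without the 2 embryos farthest from the median of Jun. Ier2 and Dusp1 (rho = 0.71, r = 0.73), Ier5 and Dusp1 (rho = 0.70, r = 0.72), Ier2 and Ier5 (rho = 0.66, r = 0.75) and Jun and Ier2 (rho = 0.65, r = 0.68) followed, each at an adjusted permutation p of 4.1e-05, and r without the 2 farthest embryos lay between 0.66 and 0.69. Without the embryos numbered 65 to 75 these 5 pairs had rho between 0.55 and 0.64, each at an adjusted permutation p of 6.4e-05. Jun and Junb had rho = 0.52 and r = 0.48 (adjusted permutation p = 4.1e-05 for each, r = 0.52 without the 2 farthest embryos). Among 13163 tested genes ranked by rho with Jun, where the median gene had a rho of 0.024, Dusp1 was the 13th, Ier2 the 55th, Ier5 the 123rd, Junb the 364th, Dusp6 the 641st, Egr1 the 1469th, Fosb the 1649th and Fos the 5157th. Against Dusp1, Fosb ranked the 2598th and Dusp6 the 2988th. Dusp6 was tied to fewer genes, with 5.78% of tested genes at a rho of 0.248 or more. Against Dusp6, Jun ranked the 24th, Fosb the 150th, Ier2 the 183rd, Ier5 the 215th and Junb the 356th. Dusp1 ranked the 761st there, Egr1 the 2221st and Fos the 3759th.

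Fos stood apart from the rest among SR1848 embryos, but it was tied to few genes of any kind. A rho of 0.248 with Fos was reached by 1.38% of tested genes, against 11.5% of all pairs of tested genes. Fos had no count in 15 SR1848 embryos, which limits the values its correlations can take. Its rho with the other members lay between -0.088 and 0.15, and none of its pairs passed, the nearest by rho being Fosb (rho = 0.15, r = 0.11, adjusted p = 0.257 and 0.434, permutation tests, r = 0.15 without the 2 farthest embryos). Egr1 paired most closely with Junb (rho = 0.53, r = 0.45, adjusted p = 4.1e-05 and 0.00015, permutation tests, r = 0.48 without the 2 farthest). Dusp6, which separated the groups best, was only loosely tied to Dusp1 (rho = 0.25, r = 0.25, adjusted p = 0.0394 and 0.0402, permutation tests, r = 0.23 without the 2 farthest), and by rho most closely to Jun (rho = 0.45, r = 0.40, adjusted p = 0.00013 and 0.00067, permutation tests, r = 0.40 without the 2 farthest). By r it was closest to Ier2 (r = 0.47, rho = 0.34, adjusted p = 0.00017 and 0.00495, permutation tests, r = 0.35 without the 2 farthest). The pair of Dusp6 and Dusp1 did not pass up to number 40 (rho = 0.0092, adjusted p = 0.959), without numbers 65 to 75 (rho = 0.17, adjusted p = 0.218) or with the oocyte sum regressed out (rho = 0.14, adjusted p = 0.326, permutation tests), and that of Dusp6 and Jun did not pass up to number 40 (rho = 0.28, adjusted p = 0.194, permutation test). Without numbers 65 to 75 Egr1 passed with Junb alone (rho = 0.44, adjusted p = 0.00135, permutation test). The pairs of Jund and Fosb rest on sparse counts.

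**Figure D2:**
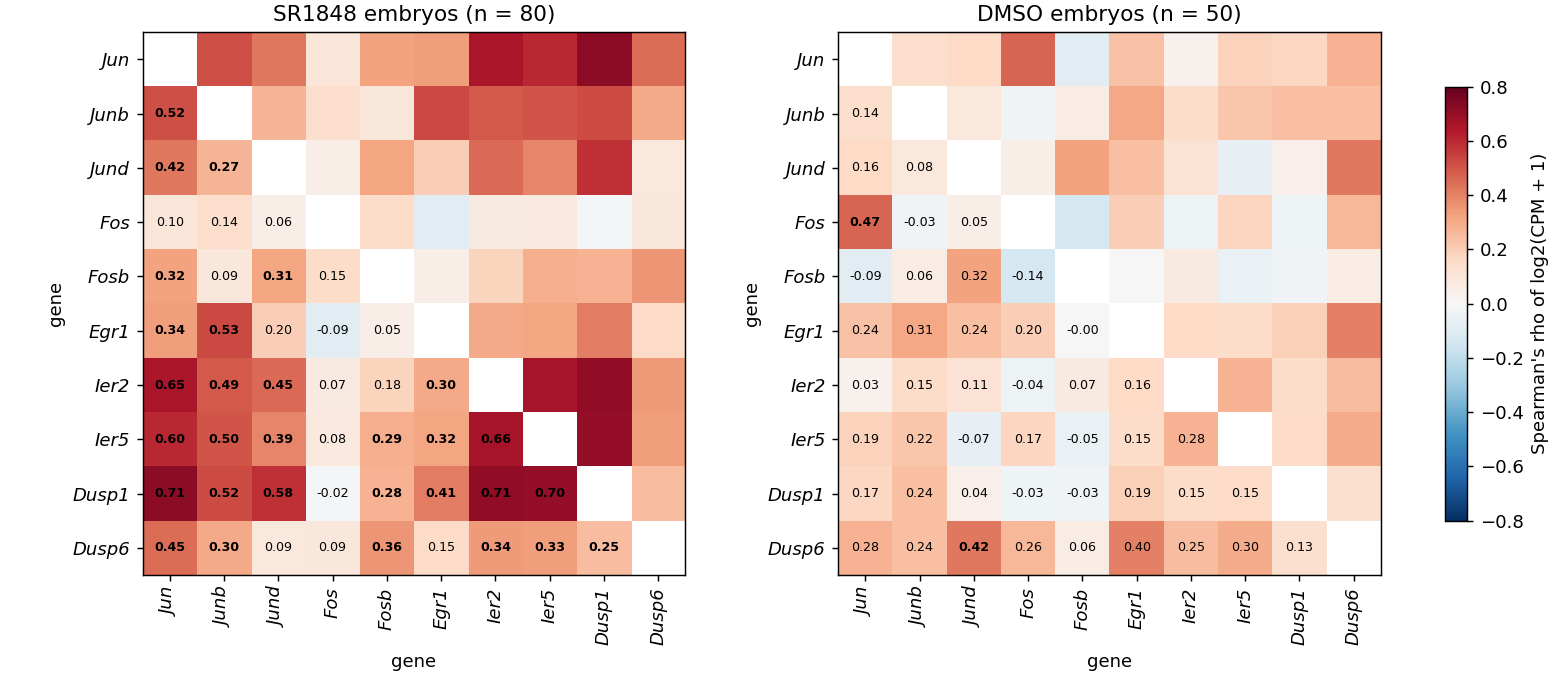
Spearman's rho of log2(CPM + 1) for each pair of genes among the 80 SR1848 embryos (left) and the 50 DMSO embryos (right), as colour, with the value below the diagonal, bold where the adjusted permutation p was under 0.05. The block of Jun, Ier2, Ier5 and Dusp1 is dark with SR1848, and the row of Fos is pale.

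With SR1848, 14 pairs passed among the 40 embryos with title numbers up to 40 and 28 among the 40 with higher numbers, which include the run from 65 to 75. Jun and Dusp1 kept a called positive rho in both (0.62 and 0.77), as did Ier2 and Ier5 (0.61 and 0.76).

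Among the 50 DMSO embryos few member pairs passed the threshold. Only 2 of 45 pairs passed by rho, with a median rho of 0.15: Jun and Fos (rho = 0.47, r = 0.44, adjusted p = 0.0409 and 0.0452, permutation tests, r = 0.38 without the 2 farthest embryos) and Jund and Dusp6 (rho = 0.42, r = 0.42, adjusted p = 0.0459 and 0.0452, permutation tests, r = 0.38 without the 2 farthest). Neither passed in embryos numbered up to 40 or above 40 alone. The lowest rho that passed, 0.4225, was reached by 1.04% of all pairs of tested genes. With fewer embryos that cutoff was stricter than the 0.248 among SR1848 embryos, so the 2 counts of pairs are not on one scale. No Jun count was found in 25 of the 50 DMSO embryos, which limits the values a correlation can take there, and the difference in correlation between the groups was not tested.

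**Figure D3:**
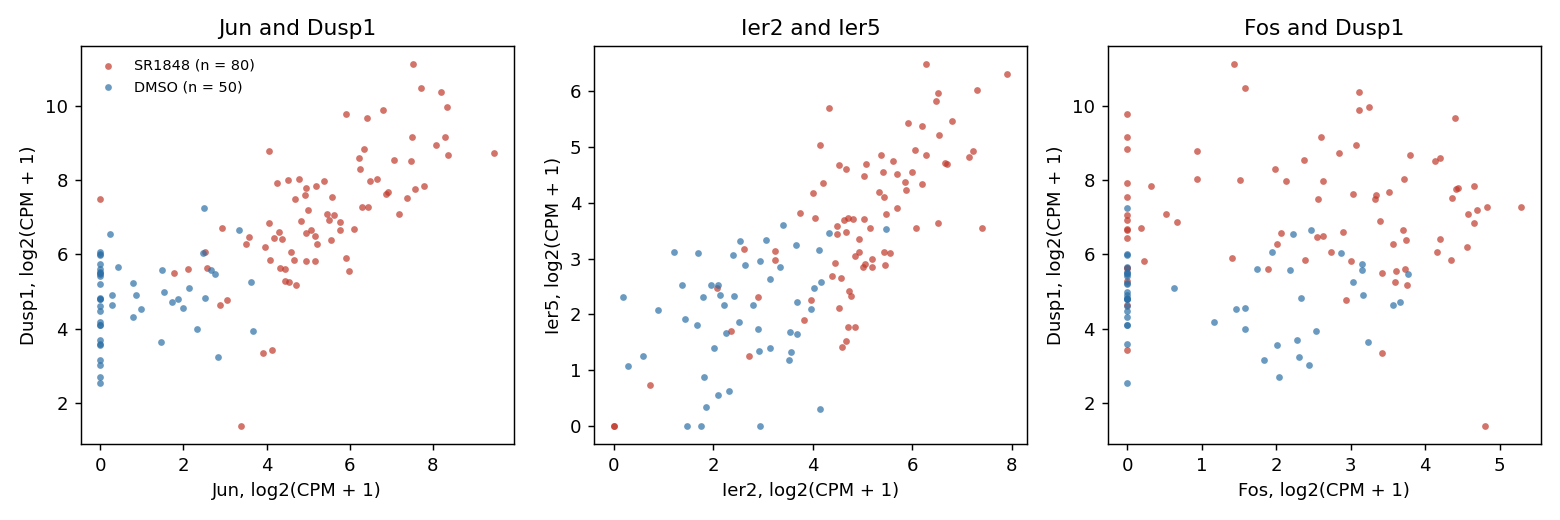
Levels as log2(CPM + 1) of Jun and Dusp1, of Ier2 and Ier5, and of Fos and Dusp1, each point being 1 embryo (red, SR1848, n = 80, and blue, DMSO, n = 50). Dusp1 is high where Jun is high among SR1848 embryos (rho = 0.71), and no such relation is seen with Fos (rho = -0.017).

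The members were also set against 4 measures within SR1848 embryos, 40 relations in all. Of these, 9 passed by rho, and 7 of the 9 were with the summed level of 44 oocyte transcripts. These members were high where the oocyte sum was low: Dusp1 had rho = -0.64 and r = -0.61 (adjusted p = 8e-05 and 0.00013, permutation tests, r = -0.62 without the 2 farthest embryos) and Jun had rho = -0.615 and r = -0.60 (adjusted p = 8e-05 and 0.00013, permutation tests, r = -0.63 without the 2 farthest). Ier5 (rho = -0.55), Jund (-0.54), Ier2 (-0.51), Fosb (-0.43) and Junb (-0.34) passed too, with r between -0.52 and -0.31, adjusted permutation p-values of at most 0.0101 by rho and 0.0241 by r, and r without the 2 farthest embryos between -0.52 and -0.30, while Fos (-0.16), Egr1 (0.046) and Dusp6 (-0.28) did not. Over all tested genes rho with the same sum had a median of -0.005 and a 5th to 95th percentile range of -0.541 to 0.58, so Dusp1, Jun, Ier5 and Jund lay beyond its lower end. Both sides of each relation are shares of the same library. Zbed3 and Spin1, at means of 12821 and 11630 CPM with SR1848, weigh most in the sum. The relations need therefore not hold for the other oocyte transcripts. In embryos numbered up to 40 only 2 of the 40 relations passed, against 9 in those numbered above 40. With the oocyte sum regressed out, a step added after the values were seen, 20 member pairs still passed, among them Jun and Dusp1 at rho = 0.48.

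No member was related to total count past the threshold, and detected genes passed with Fosb alone (rho = 0.29, r = 0.31, adjusted p = 0.0401 and 0.024, permutation tests, r = 0.26 without the 2 farthest embryos). Dusp6 was higher where Nr5a2 was lower by rho (rho = -0.31, adjusted p = 0.0252, permutation test) but not by r (r = -0.26, adjusted p = 0.0684, permutation test, r = -0.25 without the 2 farthest). The other 9 members showed no relation to Nr5a2 that passed.

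The genes whose pattern over SR1848 embryos was most like the mean of the 9 members that passed the filter, among 5729 named genes with a mean of at least 20 CPM in SR1848 embryos, were Hes6 (rho = 0.83), Hspa2 (0.82), Tbx3 (0.80), Rsrp1 (0.79) and Cdkn1c (0.79). Predicted Gm genes, Rik genes and genes named by an accession were left out of that ranking. Hes6 stood at 214 ± 164 CPM with SR1848 and 6.12 ± 5.94 CPM with DMSO, and Hspa2 at 354 ± 275 and 46.5 ± 39.03 CPM (SD, n = 80 and 50).

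The remaining immediate-early genes mostly went the same way. Of 50 listed, 40 were tested, of which 28 were higher, 6 lower and 6 not called, with a median log2 fold change of 1.04 against 0.24 over all genes, but under scaling to the summed oocyte transcripts 14 were higher and 10 lower. Over all tested genes 45.6% were higher and 36.5% lower under the main scaling. Klf10, a repressor of the Krüppel-like family, averaged 245 ± 126 CPM with SR1848 and 25.6 ± 19.1 CPM with DMSO (log2 fold change 3.26, SE 0.18, edgeR adjusted p = 1.2e-35), and 76 of 80 SR1848 embryos were above every DMSO embryo. Plk2, a stress-induced kinase, was at 564 ± 318 and 64.6 ± 54.3 CPM (log2 fold change 3.13, SE 0.18). Against these, Arid5a, which stabilizes some cytokine messages, fell to 17.01 ± 12.2 CPM with SR1848, against 103 ± 44.7 CPM with DMSO (log2 fold change -2.60, SE 0.16). Gadd45g, a growth-arrest gene (log2 fold change 4.67, SE 0.33), and Mcl1, an anti-apoptotic gene (-2.59, SE 0.23), lay near the ends of the list and were named after their values were seen.

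Among the other AP-1 family factors 10 of 18 were tested, 5 higher and 2 lower, with a median of 0.27 that was -0.60 under oocyte scaling. The higher share lay near the 45.6% of all tested genes, of which 36.5% were lower. Atf3, a stress-induced repressor that pairs with Jun, stood at 26.3 ± 37.7 CPM with SR1848 and 0.664 ± 1.55 CPM with DMSO (log2 fold change 5.27, SE 0.52). Atf1, a CREB relative, was lower, at 87.8 ± 39.1 CPM with SR1848 and 259 ± 58.9 CPM with DMSO (-1.56, SE 0.09). Fosl1, Fosl2 and Batf did not pass the filter.

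Of 17 tested MAP kinase phosphatases and ERK feedback genes beyond Dusp1 and Dusp6, 9 were higher and 5 lower, shares near the 45.6% and 36.5% of all tested genes, with a median of 0.46 that was -0.44 under oocyte scaling. Spry4, an inhibitor of receptor signalling to ERK, rose to 1632 ± 537 CPM, against 479 ± 167 CPM with DMSO (1.77, SE 0.09). Dusp10, which acts on JNK and p38, stood at 14.3 ± 10.2 and 102 ± 42.8 CPM (-2.84, SE 0.18), and Etv5, an ERK-responsive Ets factor, at 12.2 ± 11.7 and 77.6 ± 35.9 CPM (-2.67, SE 0.20). Dusp2, named after its values were seen, had a log2 fold change of 3.59.

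The lists of kinases and transcription factors upstream of the members are read against the same 45.6% higher and 36.5% lower over all tested genes, and those of JNK and p38 and of SRF and CREB lay near these shares. The receptor-to-ERK list had 18 of 28 higher and 7 lower (median 0.47, and -0.50 under oocyte scaling), with Map2k2, a kinase that activates ERK, at 15.1 ± 12.7 and 71.9 ± 47.5 CPM. The JNK and p38 list had 12 of 24 higher and 8 lower (median 0.44, and -0.47 under oocyte scaling), with the kinase gene Map2k4 at 462 ± 286 and 133 ± 59.3 CPM (log2 fold change 1.80, SE 0.13) and the p38 delta gene Mapk13 at 1.57 ± 2.08 and 18 ± 10.3 CPM (-3.50, SE 0.31). SRF, ternary complex and CREB factors had 8 of 15 higher and 6 lower (median 0.49, and -0.51 under oocyte scaling), with the coactivator gene Ep300 at 29.03 ± 12.9 and 84.4 ± 25.03 CPM.

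Factors of promoter-proximal pausing, a step at which immediate-early genes are known to be held, were mostly lower: 21 of 30 fell and 4 rose, or 7 rose without the embryos numbered 65 to 75, with a median of -0.58. This count and that of AU-rich decay genes below stand against 45.6% higher and 36.5% lower over all tested genes. Nelfe, a subunit of the pausing factor NELF, averaged 10.2 ± 9.42 and 90.8 ± 31.2 CPM (-3.15, SE 0.19), and Cdk7, a kinase of TFIIH, 18.3 ± 10.7 and 115 ± 36.02 CPM (-2.65, SE 0.13). AU-rich message decay genes, which act on messages such as Fos, had 18 of 31 higher and 9 lower (median 0.47, and -0.49 under oocyte scaling), with the decapping enzyme Dcp2 higher (1.49, SE 0.10) and Cnot10 lower (-2.26, SE 0.14). After the values were seen, genes with a single exon were counted: leaving the members out, 55.7% of 1010 were higher, against 45.6% of all tested genes with a known structure.

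**Figure D4:**
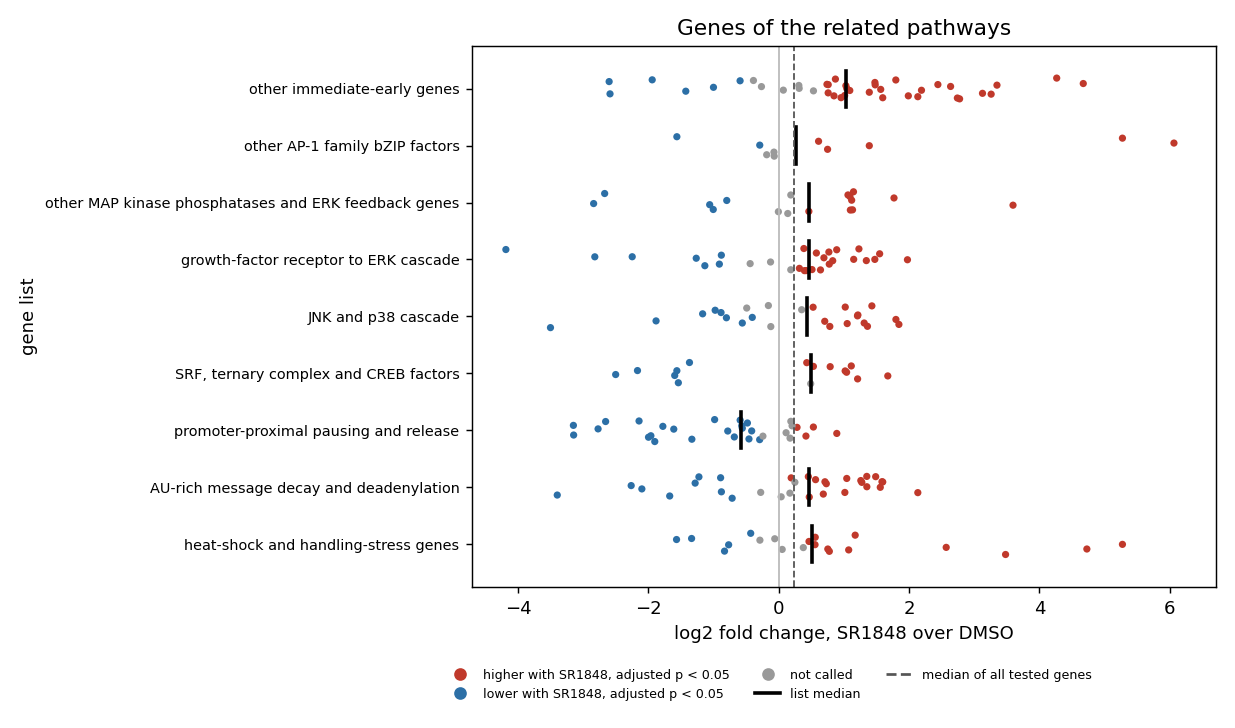
Log2 fold change, SR1848 over DMSO, of the tested genes of 9 lists, each point being 1 gene (red, higher with an edgeR adjusted p under 0.05, blue, lower, and grey, not called), with the list median as a black bar and the median of all tested genes, 0.24, as a dashed line. The other immediate-early genes lie furthest right by median (1.04), and the pausing list lies to the left (-0.58).

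Markers of handling and of other cells were read beside the members. Their counts stand against 45.6% higher and 36.5% lower over all tested genes. Heat-shock and handling-stress genes had 11 of 20 higher and 5 lower (median 0.51, and -0.32 under oocyte scaling), with Hspa1a at 244 ± 260 and 21.8 ± 15.5 CPM (3.48, SE 0.29) but Dnaja1 at 91.0 ± 33.6 and 229.9 ± 92.8 CPM (-1.34, SE 0.10), and their part in the members' levels was not tested. Summed cumulus and granulosa markers ran from 3.56 to 459 CPM with SR1848 and from 28.5 to 96.2 CPM with DMSO, and 9 of 19 had means under 1 CPM in both groups, among them Fshr, Foxl2, Nr5a1, Has2 and Ptx3. The untested markers, except Fshr, had higher means with SR1848. Inha averaged 3.04 ± 26.5 CPM, with no count in 77 SR1848 embryos, against 0 CPM with DMSO. Col1a1 averaged 2.20 ± 2.23 and 0.348 ± 0.584 CPM, and Vim 2.73 ± 4.45 and 0.257 ± 0.539 CPM. The part of such cells in the members' levels was not tested. Of the 4 tested, 2 were higher and 2 lower, with a median of -0.027 that turned to 0.20 with upper-quartile factors. Summed sperm markers ran from 151 to 880.2 CPM with SR1848 and from 74.04 to 377 CPM with DMSO. Most of that sum was Odf2 alone, at 512 ± 174 and 217 ± 70.9 CPM, where the median sums were 502 and 218 CPM. Odf2 was the 1 of 2 tested that was higher, and Oaz3 (6.01 ± 4.20 and 5.65 ± 3.56 CPM) was not called. Of the 9 markers, 6 were under 1 CPM, among them Prm1, Tnp1 and Tnp2. Blood markers had 3 of 3 higher, led by the alpha-globin genes Hba-a2 (155 ± 104 and 30.1 ± 27.4 CPM) and Hba-a1 (85.9 ± 63.3 and 13.8 ± 10.7 CPM), while 5 of 8 had means under 1 CPM, among them Hbb-bs, Alas2 and Ptprc. The summed blood markers ran from 65.2 to 680.1 CPM with SR1848 and from 6.45 to 139 CPM with DMSO, and their part in the members' levels was not tested. Summed oocyte transcripts ran from 17376 to 90103 CPM with SR1848 and from 13955 to 36047 CPM with DMSO, with 36 of 43 tested higher and 4 lower (median 0.82, and -0.16 when scaled to their own sum). The 2-cell-stage genes had 16 of 20 higher and 4 lower.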

How the data were processed

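RNA of single embryos was measured by oligo-dT-primed Smart-seq2, per the labels' protocols. Per the submitters' processing notes, the tools were DESeq2 1.32.0 under R 3.5.1, kallisto 0.46.1, Trim Galore 0.6.2 and bcl2fastq, and mm10 and hg19 are listed as builds without a role. The authors deposited kallisto estimated counts for 119358 entries, of which 28.1% of values are not whole (tolerance 1e-06). The deposited log2 table equals log2(count over a size factor + 1) with a largest deviation of 5.3e-14 and enters no result. The authors' deposited DESeq2 table gives base means on a signal scale, log2 fold changes, a test score that was not used, and p-values.

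Estimated counts were summed per gene name and rounded. The 2164 entries without a name, 0.961% of counts, stayed out of library sizes and tests. Genes kept by filterByExpr were tested with edgeR 4.0.16 in R 4.3.3 (TMM, robust glmQLFit and glmQLFTest, two-sided, Benjamini-Hochberg over 13164 genes, threshold 0.05, biological coefficient of variation 0.770). SEs were obtained by dividing the size of a log2 fold change by the square root of its F, and reads carry no molecular identifiers. Correlations used log2(CPM + 1) and 100000 permutations. The fit was tested on simulated data, where it missed a share of 2-fold changes larger than first allowed, and the allowance was then set on 4-fold changes. Coordinates are GENCODE M21 on mm10.

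The members and the 14 gene lists were chosen with earlier results of these data known. Named genes are the members, Nr5a2, the 3 smallest p-values and the most abundant gene of each list, and the 5 genes most like the members; the text names a part, and some items are not reported here. Alternatives were RLE, upper-quartile, total-count and oocyte-transcript scaling, a minimum mean of 5 CPM or none, limma-voom (limma 3.58.1) or DESeq2 1.42.0 as the test, depth as a covariate, subsets by embryo number and by depth, leaving out SR1848 embryos 65 to 75, and the embryo number as a block.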

Additional observations from a re-analysis of the deposited data

How the results depend on the processing

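The log2 fold changes of the 9 fitted members kept their direction under each alternative that gave a value, which for Fosb leaves out the 5 CPM filter and the fits of shared numbers with and without a block. The lowest were mostly those scaled to summed oocyte transcripts (Fos 0.90, Egr1 1.33, Ier5 1.42, Fosb 1.53, Ier2 1.95, Dusp6 3.01, Junb 4.14), and Jun moved to 7.69 in embryos numbered above 40, where 15 DMSO embryos remain. Jund gave a value, 0.41, without a filter.

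Scaling to summed oocyte transcripts moved the median of all genes to -0.69, with 2184 genes higher and 7493 lower. Higher and lower counts were then 14 and 10 for other immediate-early genes, 3 and 5 for other AP-1 factors, 2 and 9 for feedback genes, 4 and 17 for the receptor-to-ERK list, 7 and 19 for AU-rich decay, 4 and 10 for heat shock and 13 and 18 for oocyte transcripts. The counts higher were 5 for JNK and p38, 2 for SRF and CREB factors, 0 for pausing and 0 for cumulus markers. Medians turned to -0.60 for other AP-1 factors, -0.44 for feedback genes, -0.50 for receptor-to-ERK, -0.47 for JNK and p38, -0.51 for SRF and CREB factors, -0.49 for AU-rich decay, -0.32 for heat shock and -0.16 for oocyte transcripts, and Crebbp (-0.39), Hspa5 (-0.24), Tmem92 (-0.41) and Oaz3 (-0.78) turned negative. The cause was not tested.

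Without a filter 10165 genes were higher and 7424 lower, more genes being tested. Lower calls of other AP-1 factors were 1 with upper-quartile factors, in embryos numbered up to 40 and in shared numbers without a block, and 4 with limma-voom. Pausing genes higher were 8 with upper-quartile factors, and receptor-to-ERK genes higher 11 in embryos numbered above 40. Cumulus markers higher were 0 with a 5 CPM filter, in embryos numbered up to 40 and with the replicate block, and 1 with limma-voom, above number 40 and in shared numbers, and those lower were 1 with the 5 CPM filter and above number 40. Their median turned to 0.20 with upper-quartile factors and 1.54 above number 40. Oaz3 turned to -0.025 with RLE, -0.10 with total counts, -0.029 with DESeq2, -0.0029 with limma-voom and -0.012 with the block, and Atf2 to 0.16 with upper-quartile factors. Without the SR1848 embryos numbered 65 to 75, chosen after the values were seen, 7 pausing genes and 1 cumulus marker were higher, the cumulus median was -1.13, Atf2 turned to 0.024 and the rho of Fos and Dusp1 to 0.015.

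SR1848 pairs past the threshold numbered 14 up to number 40, and DMSO pairs 1 with a pseudocount of 0.1, with depth residuals or with oocyte residuals, and 0 both up to number 40 and above it. Relations with the 4 measures numbered 2 up to number 40. The rho of pairs turned in Fos and Dusp1 (0.0006, total-count CPM), Junb and Fosb (-0.065), Fos and Ier2 (-0.048), Fos and Ier5 (-0.064) and Fosb and Dusp1 (-0.022, all oocyte residuals), Egr1 and Dusp6 (-0.057, up to number 40) and Fos and Ier5 (-0.0054, above it). The difference in total count was -236753 up to number 40 (permutation p = 0.418).

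Embryo numbers did not pair the groups: over 50 shared numbers the correlation of deviations ran from -0.22 to 0.14. With the number as a replicate block 5157 genes were higher and 4897 lower. Over all alternatives 396 counts of calls or differences between groups stayed within 1.5 times or on their side of the threshold while 45 moved and 1 weakened. Of the pair values, 245 kept their side while 39 weakened, 2 passed newly and 8 turned. Member log2 fold changes shifted by less than 1 SD of log2(CPM + 1) between SR1848 embryos in 131 cases, and 1 moved. That SD is a wide limit, 1.66 for Fos against a log2 fold change of 1.63, so little is read from this count. Depth limits Jund and Fosb most.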
